A study of Caenorhabditis elegans with 12 samples.

Results

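The mir-51 family of Caenorhabditis elegans comprises the microRNA genes mir-51, mir-52, mir-53, mir-54, mir-55 and mir-56. Its members were taken as every measured mature arm, 5p or 3p, of these 6 genes, which gave 8 of the 213 microRNAs in the deposited table. In the table's names these were cel-miR-51-5p, cel-miR-51-3p, cel-miR-52-5p, cel-miR-53-5p, cel-miR-54-3p, cel-miR-54-5p, cel-miR-55-3p and cel-miR-56-3p, given below without the species prefix, and all 8 passed the filter on low values. The other annotated arms of the 6 genes were not analysed here. Small RNA came from whole worms of 4 groups with 3 libraries each: mir-71(n4115) mutants of strain MT12993 at day 5 of adulthood, the same mutants at day 0, wild-type N2 worms at day 5, and N2 worms at day 0. The n4115 allele is a deletion of mir-71, a microRNA gene that promotes long life, and N2 is the standard laboratory strain. All groups were grown at 20 °C and placed as young adults on plates with 0.1 mg/mL 5-fluorodeoxyuridine, which blocks DNA synthesis and keeps progeny from developing. The mutants were 1 strain, so that strain background and loss of mir-71 cannot be told apart.

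A microRNA gene is transcribed as a hairpin, from which Dicer cuts a duplex of a 5p and a 3p arm. One arm is usually loaded into an Argonaute protein and guides it to messenger RNAs through its seed, the bases near its 5′ end, while the other is mostly degraded. The mir-51 family shares its seed with the widely conserved miR-99 and miR-100 group of animals. In worms the family is expressed in most tissues, is needed for embryonic development and for attachment of the pharynx, and acts in genetic interaction with the let-7 family and other microRNAs. The seed-carrying arms are miR-51-5p, miR-52-5p, miR-53-5p, miR-54-3p, miR-55-3p and miR-56-3p. miR-51-3p and miR-54-5p are the opposite arms of their hairpins.

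The 6 genes lie at 3 places in the genome (build WBcel235, precursor positions from the Ensembl annotation). mir-51 lies on chromosome IV at 11026013 to 11026112 and mir-53 at 11027593 to 11027691, both on the minus strand between protein-coding genes and 1480 bases apart. mir-52 lies on the plus strand of the same chromosome at 14034008 to 14034107, also between protein-coding genes, and is overlapped on the opposite strand by the non-coding gene Y37A1B.335. mir-56, mir-55 and mir-54 form a cluster on the minus strand of chromosome X at 13144691 to 13144787, 13144827 to 13144924 and 13144996 to 13145094. The gaps between their precursors are 39 and 71 bases, and all 3 lie in an intron of F09A5.3, which is transcribed from the opposite strand. An annotated gene mir-55b overlaps mir-55 on the other strand, and the counting rule for strands is not given in the sources used here. miR-52-5p and miR-53-5p are near-identical in sequence, so the division of reads between them is uncertain.

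The libraries held between 917170 and 4070663 reads over the measured microRNAs. The targeted gene fitted the labels: miR-71-5p stood at 52.5 to 189 normalised reads in the mutant libraries and at 90221 to 173431 in the N2 libraries. After the authors' scaling the libraries still differed in overall level. Their normalised totals were 5021422 in replicate 1 of the mutants at day 5 and 1276414 to 3024618 in the other 11 libraries, and their medians over all microRNAs ran from 77.1 to 290. Because of this, each comparison of levels below is set beside the median of all microRNAs. Ratios of arms within a library do not depend on scaling, except through the 1 added before log2 in their tests.

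Together the 6 seed-carrying arms were a sizeable part of the normalised counts over the 213 measured microRNAs, here called the library total. Other kinds of small RNA are not in that total. Their sum made up 6.57% ± 2.13 of the library total in mutants at day 5, 8.13% ± 3.08 in mutants at day 0, 7.23% ± 1.4 in N2 at day 5 and 8.79% ± 1.2 in N2 at day 0 (mean ± SD of 3 libraries per group). In normalised counts the sum was 187251 ± 55989 in mutants at day 5 and 153651 ± 16240.1 in mutants at day 0, and 128511 ± 10455 in N2 at day 5 and 158176 ± 19274 in N2 at day 0. The mutant libraries at day 5 overlapped those at day 0, with replicate 1 at day 5 standing highest at 250290.1. In N2 the ranges met only narrowly, since the highest day 5 library stood at 139165 and the lowest day 0 library at 138795.

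The abundance of the arms fell into 3 tiers. Over the 12 libraries miR-52-5p averaged 39913 and miR-51-5p 38442 normalised reads, which ranked them 20th and 21st of all microRNAs. miR-56-3p averaged 28983 (rank 23), miR-55-3p 25063 (rank 26) and miR-54-3p 21749 (rank 28), and the library ranges of these 5 arms overlapped one another. miR-53-5p, at 2747 (rank 48), was lower than each of the 5 in every library. miR-54-5p, at 132 (rank 116), and miR-51-3p, at 56.4 (rank 135), formed the lowest tier, and their ranges overlapped. In reads, the seed-carrying arms had 1181 to 81725 per library, miR-54-5p 46 to 359 and miR-51-3p 10 to 197, so that miR-54-5p and miR-51-3p carry the larger counting error.

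**Figure D1:**
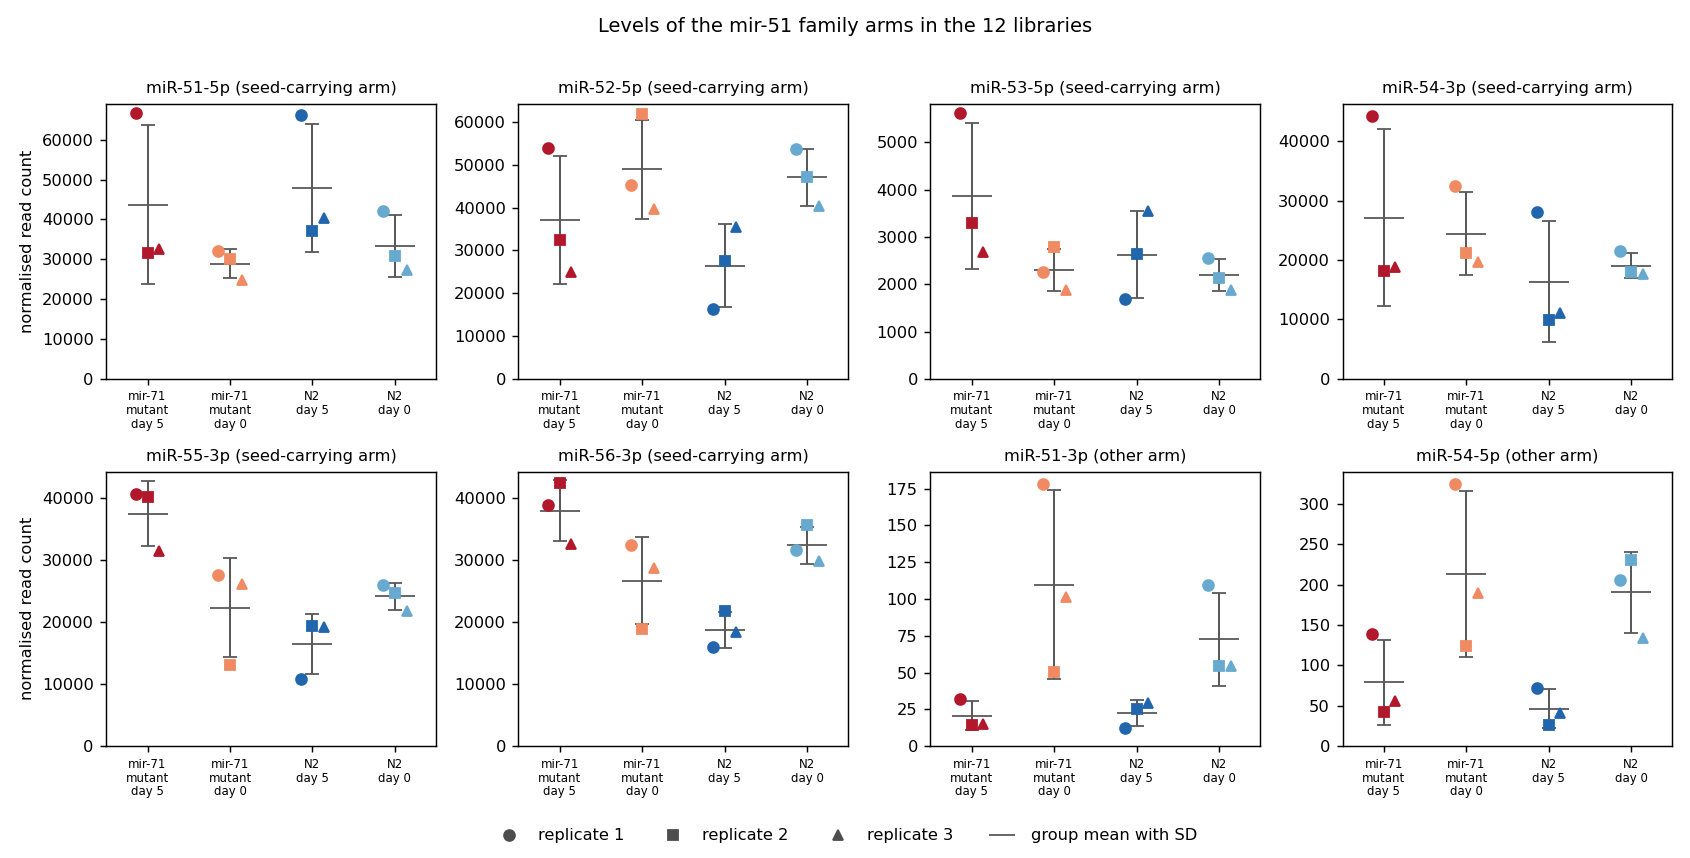
Normalised read counts (linear axes from 0, a separate scale per panel) of the 8 measured arms in the 12 libraries, with symbols for the replicates and bars for group mean and SD (n = 3). miR-51-3p and miR-54-5p averaged lower at day 5 than at day 0 in each strain, with an overlap for miR-54-5p in mutants, whereas the seed-carrying arms showed no shared direction.

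The clearest pattern in the family concerned the opposite arms, which averaged lower at day 5, while the seed-carrying arms of the same hairpins did not pass the test of age. miR-51-3p, the opposite arm of mir-51, stood at 32.1, 14.5 and 15.2 normalised reads in mutants at day 5 (replicates 1, 2 and 3), against 178, 50.1 and 101 in mutants at day 0. The N2 libraries held 12.3, 25.3 and 29.4 at day 5, against 109, 54.7 and 54.3 at day 0. Every day 5 library lay below every day 0 library of its strain. miR-51-3p fell in mutants by 2.27 ± 0.54 on the log2(normalised count + 1) scale (SE; limma, Benjamini-Hochberg adjusted p = 0.0119) and in N2 by 1.67 ± 0.54 (adjusted p = 0.0393). In both strains the day 5 level was lower in 3 of 3 libraries than the lowest day 0 level.

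miR-54-5p, the opposite arm of mir-54, stood at 139, 42.1 and 56.4 normalised reads in mutants at day 5, against 325, 124 and 189.6 in mutants at day 0. Among N2 libraries it stood at 72.3, 25.9 and 41.5 at day 5, against 206, 231 and 134 at day 0. The N2 groups did not overlap, whereas in mutants replicate 1 at day 5 stood above replicate 2 at day 0. miR-54-5p fell in N2 by 2.09 ± 0.53 (log2 difference ± SE; limma adjusted p = 0.0127). In mutants the log2 difference was −1.49 ± 0.53, which did not pass the threshold (adjusted p = 0.0783). It did with a replicate block, an alternative that adds an effect of the replicate number over all groups (limma adjusted p = 0.00637). It also did under equal totals (−2.02, limma adjusted p = 0.000122), trimmed means of M-values (−1.72, adjusted p = 0.00105) and library medians (−1.59, adjusted p = 0.00171). Of 23 alternatives, the mutant difference of miR-54-5p passed the threshold under 6 and not under 17.

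In the limma test of age in N2 these were 2 of the 8 members called, both lower, where 23.5% of all 213 microRNAs were called, 16% lower and 7.51% higher. These were 16 microRNAs higher and 34 lower, beside 27 and 67 under equal totals, 37 and 40 under trimmed means of M-values and 40 and 35 under library medians. In the test of age in mutants miR-51-3p was the 1 member called, against a background of 13.6% called, 3.76% lower and 9.86% higher. These were 21 higher and 8 lower, beside 24 and 47, 34 and 31, and 47 and 28 under the same 3 scalings. With the replicate block 2 members were called in mutants, both lower, among 67 of all 213 microRNAs, 45 higher and 22 lower. That replicate numbers paired the mutant libraries was inferred from correlations in the same data. Of the single-library omissions, the miR-51-3p call in N2 was lost without replicate 1 of N2 at day 5 (−1.30), replicate 2 of that group (−1.80) or replicates 1, 2 or 3 of N2 at day 0 (−1.34, −1.83 and −1.83). It was also lost without replicate 3 of the mutants at either day, at −1.67, and with the deposited log2 values (adjusted p = 0.0508). Its call in mutants was lost without replicate 3 of the mutants at day 5 (−2.11) and with only the 2 mutant groups in the fit (−2.27), and the miR-54-5p call in N2 without replicate 2 at day 5 (−1.74) or at day 0 (−1.93). With only the 2 mutant groups in the fit, 3 of all 213 microRNAs were called.

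Averaged over the strains, a comparison added after the data were seen, the age difference was −1.97 ± 0.38 for miR-51-3p (limma adjusted p = 0.00138) and −1.79 ± 0.37 for miR-54-5p (adjusted p = 0.00191). In that comparison the median of all microRNAs was −0.11, 33.8% were called and 17.4% were called lower. Both differences were past the threshold under each of 22 alternatives, with adjusted p between 2.56e-06 and 0.00645 for miR-51-3p and between 7.80e-07 and 0.00799 for miR-54-5p.

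Within each library the number of seed-carrying arms per opposite arm was higher at day 5. For mir-51 the ratio of miR-51-5p to miR-51-3p was 2081, 2169.5 and 2149 in mutants at day 5, against 179, 599 and 245 in mutants at day 0. In N2 it was 5401, 1462 and 1375 at day 5, against 385, 562 and 502 at day 0. The lowest day 5 ratio lay above the highest day 0 ratio in each strain. The value of 5401, in replicate 1 of N2 at day 5, rests on 10 reads of miR-51-3p and has a 95% exact binomial interval of 2936 to 11263, which covers counting error only. The log2 ratio rose in mutants by 2.78 ± 0.54 (SE; limma over 61 genes with both arms measured, adjusted p = 0.00286) and in N2 by 2.16 ± 0.54 (adjusted p = 0.0154). Without replicate 1 of N2 at day 5 the rise in N2 was 1.54.

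For mir-54 the ratio of miR-54-3p to miR-54-5p was 318, 432 and 335 in mutants at day 5, against 99.9, 172 and 104 in mutants at day 0. In N2 it was 389, 382 and 266 at day 5, against 104, 78.0 and 132 at day 0. Here too the groups did not overlap in either strain. The log2 ratio rose in mutants by 1.55 ± 0.36 (limma adjusted p = 0.00938) and in N2 by 1.71 ± 0.36 (adjusted p = 0.00847). Both genes were called in both strains under each of the 19 alternatives run, leaving out any library included, with adjusted p up to 0.0499.

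**Figure D2:**
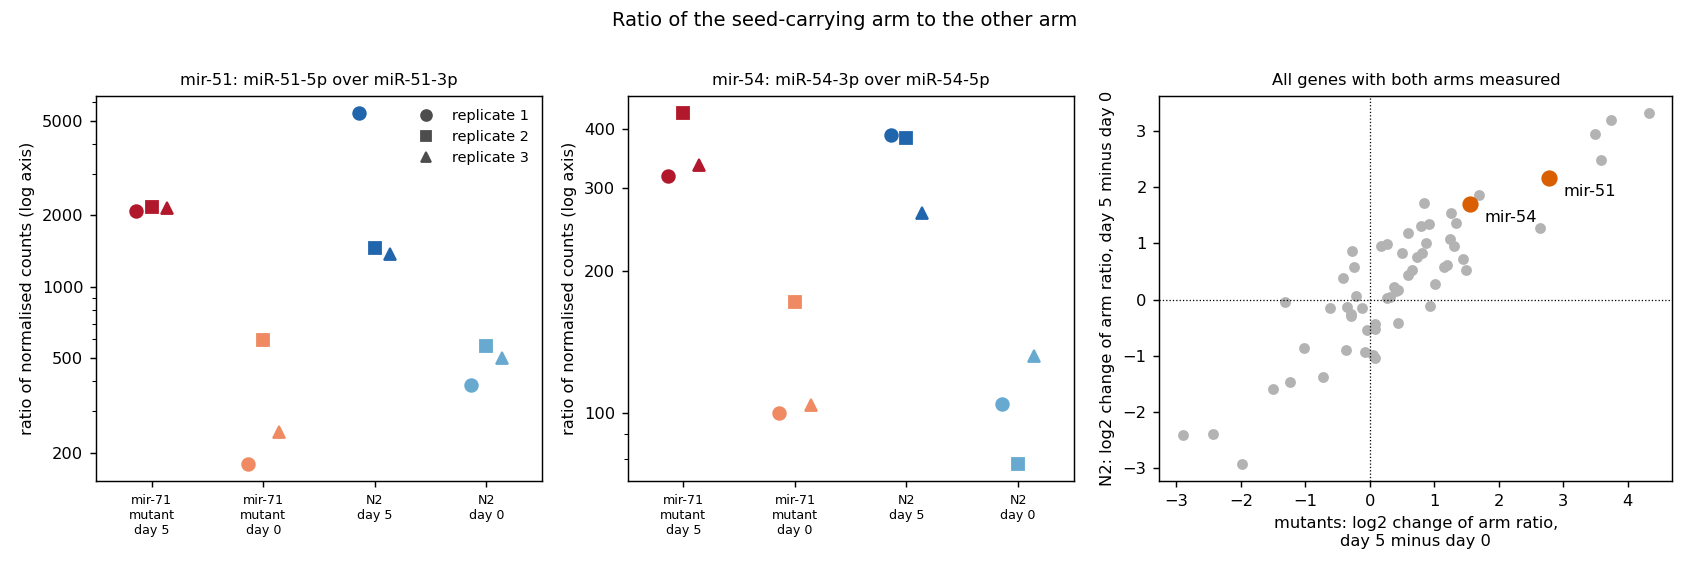
Ratio of the seed-carrying to the opposite arm of mir-51 and mir-54 in each library (log axes, symbols for replicates), and the change of the arm ratio with age in N2 against that in mutants for the 61 genes with both arms measured. The day 5 libraries of each strain lay above its day 0 libraries for both genes, which sat among the genes with the larger rises in both strains.

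The change in arm ratio was not particular to the mir-51 family. For all 61 genes the ratio was that of the more to the less abundant arm, set by the mean over these 12 libraries. With age, 11.5% of the 61 genes were called in mutants (9.84% higher) and 18% in N2 (13.1% higher), and the median log2 change over all 61 genes was 0.43 in mutants and 0.44 in N2. The groups did not overlap, with day 5 higher, for 34.4% of genes in mutants and 23% in N2. mir-51 had the 5th highest change in both strains, and mir-54 the 9th in mutants and the 8th in N2. The largest called changes belonged to genes of the mir-35 family, which is expressed in the germline and early embryo: mir-39, mir-36 and mir-37 in mutants (log2 4.33, 3.74 and 3.58) and mir-39, mir-36 and mir-40 in N2 (3.32, 3.20 and 2.95). Averaged over the strains, the log2 ratio rose by 2.47 ± 0.38 for mir-51 and by 1.63 ± 0.26 for mir-54 (limma adjusted p = 0.000309 for each). In that averaged comparison 44.3% of the genes were called and 32.8% were called higher.

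The strains did not differ detectably in these ratios. At day 5 the log2 ratio in mutants minus that in N2 was −0.06 for mir-51 (95% interval −1.23 to 1.11) and 0.09 for mir-54 (−0.70 to 0.87), and 1.64% of the 61 genes were called. At day 0 it was −0.68 for mir-51 (−1.85 to 0.49) and 0.24 for mir-54 (−0.54 to 1.03), with 0% called in limma and 2 of 61 genes at an unadjusted p under 0.05. The change with age in mutants minus that in N2 was 0.62 for mir-51 (−1.04 to 2.28) and −0.16 for mir-54 (−1.27 to 0.96), where 0% of the genes were called and 0 had an unadjusted p under 0.05.

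None of the 6 seed-carrying arms passed the limma test of age in either strain. miR-51-5p stood at 66751, 31552 and 32688 normalised reads in mutants at day 5, against 31952, 29996 and 24769.9 in mutants at day 0. N2 worms had 66168, 37014 and 40419.8 at day 5, against 42055, 30703 and 27241 at day 0. The groups overlapped in both strains, and the log2 differences were 0.51 ± 0.42 in mutants (adjusted p = 0.383) and 0.50 ± 0.42 in N2 (adjusted p = 0.410). Without replicate 1 at day 5 the difference was 0.16 in mutants and 0.24 in N2. Under scaling by trimmed means of M-values and by library medians, miR-51-5p was called higher at day 5 in N2 (0.92 with adjusted p = 0.0311, and 1.04 with adjusted p = 0.0210). Its N2 groups did not overlap, higher at day 5, under these 2 scalings and under equal totals, whereas its mutant groups overlapped under all 3. Over its 23 alternatives the adjusted p ran from 0.0210 to 0.752.

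miR-52-5p, the most abundant arm at day 0 in both strains, stood at 53966, 32479.7 and 24949 normalised reads in mutants at day 5, against 45297, 61913 and 39726 in mutants at day 0. In N2 it stood at 16258, 27547 and 35552 at day 5, against 53729.9, 47153 and 40381 at day 0. Its N2 groups did not overlap and its mutant groups did. The log2 difference was −0.45 ± 0.43 in mutants (adjusted p = 0.479) and −0.89 ± 0.43 in N2 (adjusted p = 0.126). miR-53-5p, its scarce near-copy, stood at 5611, 3299 and 2684 in mutants at day 5, against 2253, 2776 and 1887 in mutants at day 0. The N2 libraries held 1696, 2629 and 3539 at day 5, against 2562, 2137 and 1885 at day 0. The groups of miR-53-5p overlapped in both strains, with log2 differences of 0.69 ± 0.41 in mutants (adjusted p = 0.253) and 0.20 ± 0.41 in N2 (adjusted p = 0.762).

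The X cluster yields miR-54-3p, miR-55-3p and miR-56-3p from neighbouring hairpins, and none of the 3 was called with age. miR-54-3p stood at 44342, 18180.1 and 18885 normalised reads in mutants at day 5, against 32444, 21254 and 19703 in mutants at day 0. Among N2 libraries it stood at 28093, 9895 and 11029 at day 5, against 21473, 18008 and 17683 at day 0. The log2 difference was 0.05 ± 0.48 in mutants (adjusted p = 0.943) and −0.39 ± 0.48 in N2 (adjusted p = 0.590), with overlapping groups, replicate 1 standing highest in each.

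miR-55-3p stood at 40659, 40195 and 31446 normalised reads in mutants at day 5, against 27602, 13122 and 26099 in mutants at day 0. N2 worms had 10865, 19292 and 19171 at day 5, against 25896, 24664 and 21743 at day 0. Every mutant library at day 5 lay above every mutant library at day 0, and every N2 library at day 5 lay below every N2 library at day 0. The log2 difference was 0.81 ± 0.41 in mutants (adjusted p = 0.184) and −0.60 ± 0.41 in N2 (adjusted p = 0.301). Leaving out replicate 2 at day 0 gave 0.47 in mutants, and leaving out replicate 1 at day 5 gave −0.32 in N2.

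miR-56-3p showed the same arrangement of libraries. It stood at 38961, 42448 and 32655 normalised reads in mutants at day 5, against 32426, 18888 and 28844 in mutants at day 0. In N2 it stood at 16084, 21891 and 18389 at day 5, against 31625, 35728 and 29863 at day 0. The log2 difference was 0.54 ± 0.37 in mutants (adjusted p = 0.321) and −0.79 ± 0.37 in N2 (adjusted p = 0.119). Under equal totals, trimmed means of M-values and library medians, neither miR-55-3p nor miR-56-3p had groups without overlap for age in either strain, whereas miR-51-3p and miR-54-5p had them, lower at day 5, in both strains under all 3.

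Counted over the family, groups did not overlap for 3 of 8 members in mutants, 2 higher and 1 lower at day 5, beside 18.3% higher and 8.45% lower among all microRNAs. In N2 they did not overlap for 5 of 8 members, all lower at day 5, beside 34.7% lower and 12.2% higher among all microRNAs. These counts hold for the authors' scaling. Under equal totals, trimmed means of M-values and library medians, 3, 2 and 2 members were lower in N2, and 1, 2 and 1 were higher. In mutants 3, 2 and 2 were lower and 0 were higher under each. For age and for strain, the share of all microRNAs without overlap was taken under the authors' scaling only. The member counts under the 3 other scalings thus have no background beside them, and nothing about the family is read from them. The median log2 difference of the members was 0.28 in mutants and −0.70 in N2, and that of all microRNAs was 0.28 in mutants and −0.48 in N2. The seed-carrying arms alone had medians of 0.52 in mutants and −0.49 in N2.

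**Figure D3:**
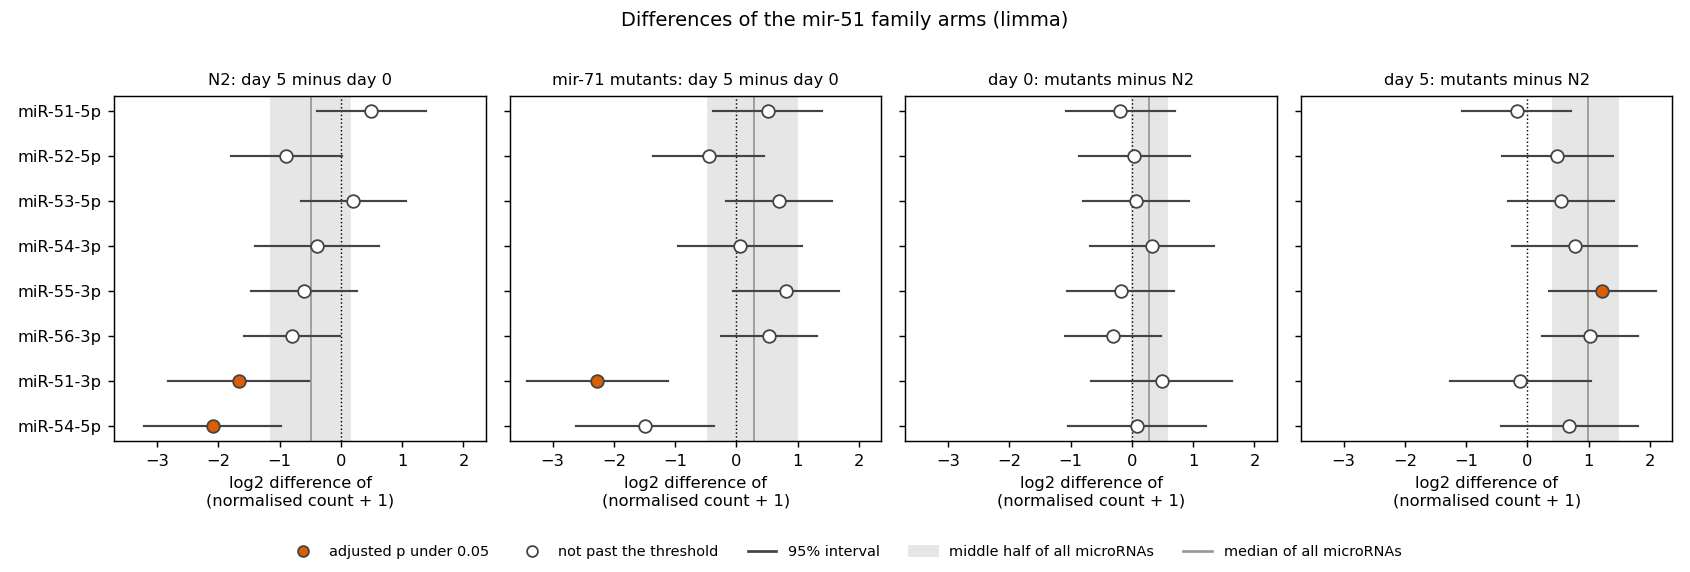
Log2 differences of log2(normalised count + 1) with 95% intervals (limma) for the 8 arms in 4 comparisons, with filled points past an adjusted p of 0.05. The grey band and line give the middle part (from the lower to the upper quartile) and the median of all microRNAs, which lay at 0.98 for mutants minus N2 at day 5.

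In whole worms, a lower level can come from fewer cells that hold a microRNA or from less of it per cell, and these cannot be told apart. Markers of tissues also moved with age. Of 8 germline and early embryo microRNAs (miR-35-3p to miR-42-3p), 2 rose in mutants and 4 in N2, and 0 fell. Their summed level was 108135 to 346009.7 normalised reads in mutants at day 5 and 14147 to 154729.7 at day 0, and 143403 to 238057 in N2 at day 5 and 23098 to 97947 at day 0. None of the markers of muscle (miR-1-3p), intestine (miR-60-3p) and glia (miR-228-5p) passed the test of age in either strain, while of the neuronal markers lsy-6 and miR-124-3p, lsy-6 fell in N2 (log2 −2.08, limma adjusted p = 0.0447). Both neuronal markers were scarce, summing to 6.13 to 19.9 normalised reads in N2 at day 5 and 23.4 to 29.8 at day 0, so that this fall rests on few reads. The part of the tissue markers in the results on the mir-51 family was not tested.

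Between the strains, day 0 showed no detectable difference. The log2 difference of mutants minus N2 ran from −0.31 for miR-56-3p to 0.49 for miR-51-3p, and 0 of the 8 members were called in limma, with 0 members at an unadjusted p under 0.05. The lowest adjusted p among them was 0.969. Of all 211 microRNAs tested, 0% were called and 5 had an unadjusted p under 0.05. Their median difference was 0.27, while that of the 8 members was 0.05. The single values were −0.19 for miR-51-5p, 0.04 for miR-52-5p, 0.06 for miR-53-5p, 0.33 for miR-54-3p, 0.09 for miR-54-5p and −0.18 for miR-55-3p, with 95% intervals that reached from −1.09 to 1.64 over the 8 arms. No member had groups without overlap, beside 4.74% of all microRNAs, 3.32% higher and 1.42% lower in mutants. The same held for the members under equal totals and library medians. Under trimmed means of M-values miR-55-3p and miR-56-3p had groups without overlap, lower in mutants.

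At day 5, under the authors' scaling, the mutants stood higher than N2 for miR-55-3p and miR-56-3p, with no overlap between the groups. Under equal totals, trimmed means of M-values and library medians the groups of both arms overlapped. The log2 difference of miR-56-3p was then 0.35, 0.077 and 0.18. The log2 difference was 1.23 ± 0.41 for miR-55-3p (limma adjusted p = 0.0438), the 1 member called, and 1.02 ± 0.37 for miR-56-3p (adjusted p = 0.0556). With the replicate block both were called (limma adjusted p = 0.0111 and 0.0173), as were 96 of all 211 microRNAs, 95 higher and 1 lower, against 48 without it. That replicate numbers paired these libraries was inferred from correlations in the same data. The other arms were not called: the differences were 0.77 ± 0.48 for miR-54-3p, 0.68 ± 0.53 for miR-54-5p, 0.55 ± 0.41 for miR-53-5p, 0.49 ± 0.43 for miR-52-5p, −0.12 ± 0.54 for miR-51-3p and −0.17 ± 0.42 for miR-51-5p.

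Under the authors' scaling most microRNAs stood higher in the mutants at day 5. The median difference of all microRNAs was 0.98, and 22.7% were called, 48 higher and 0 lower, while the members had a median of 0.62 and 6 of the 8 lay below 0.98. Under equal totals, trimmed means of M-values and library medians the calls were 21 higher and 5 lower, 15 and 9, and 17 and 7. The median difference of all microRNAs was then 0.32, 0.053 and 0.15. Groups did not overlap for 2 of the 8 members, beside 41.7% of all microRNAs, of which 41.2% stood higher and 0.474% lower in mutants, as shares of all. Under equal totals the difference of miR-55-3p was 0.55, under trimmed means of M-values 0.28 and under library medians 0.38, and it was called under none of these, with adjusted p from 0.348 to 0.684. Its adjusted p ran from 0.0111 to 0.684 over its 23 alternatives. Scaling by trimmed means of M-values called miR-51-5p lower in mutants instead (−1.12, adjusted p = 0.0342, against 0.0342 to 0.981 over its alternatives). Under all 3 scalings the day 5 groups of miR-51-5p did not overlap, lower in mutants.

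The miR-55-3p call was also lost on leaving out any 1 of the day 5 libraries, any 1 of the N2 libraries at day 0 or replicate 3 of the mutants at day 0. Without replicates 1, 2 and 3 of the mutants at day 5 in turn the difference was 1.16, 1.17 and 1.35, and without those of N2 at day 5 it was 0.95, 1.37 and 1.36. Without any of the named day 0 libraries it was 1.23. In the same comparison both neuronal markers and miR-60-3p of the intestine were higher in mutants (log2 3.35 for lsy-6, 1.86 for miR-124-3p and 1.5 for miR-60-3p, limma adjusted p = 0.0148, 0.0277 and 0.0498). The median of all microRNAs was 0.98. Not called were miR-1-3p of muscle (1.42, limma adjusted p = 0.101) and miR-228-5p of glia (1.13, adjusted p = 0.0925). Of the 8 germline and early embryo microRNAs 0 were called, with differences from −0.52 for miR-35-3p to 1.02 for miR-41-3p. The 2 neuronal markers summed to 54.5 to 98.7 normalised reads in mutants and 6.13 to 19.9 in N2, and miR-60-3p stood at 2020 to 4945 in mutants and 619.95 to 1928 in N2. Their part in the difference of miR-55-3p was not tested, and neither was that of replicate 1 of the mutants at day 5 with its high total, without which the difference of miR-55-3p was 1.16.

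The effect of age was not shown to differ between the strains for any member. The age difference in mutants minus that in N2 was 1.41 ± 0.58 for miR-55-3p (unadjusted p = 0.0267) and 1.33 ± 0.52 for miR-56-3p (unadjusted p = 0.0215) by limma, and the adjusted p was 0.394 for each. For the other members it ran from −0.60 for miR-51-3p to 0.60 for miR-54-5p. The median over all microRNAs was 0.70. Of the 211 microRNAs tested, 0% were called and 25 had an unadjusted p under 0.05, among them these 2 members.

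The make-up of the family, taken as the share of each arm in the sum of the 6 seed-carrying arms, differed in mean with age in the same direction in both strains for miR-51-5p, miR-52-5p and miR-53-5p. miR-51-5p held 22.7% ± 3.95 in mutants at day 5 and 18.8% ± 1.37 at day 0, and 36.8% ± 9.31 in N2 at day 5 and 20.9% ± 2.43 at day 0 (SD, n = 3). miR-52-5p held 19.4% ± 2.08 in mutants at day 5 and 32.1% ± 8.47 at day 0, and 20.9% ± 8.3 in N2 at day 5 and 29.7% ± 0.603 at day 0. The shares of miR-51-5p overlapped between the ages in mutants, where the lowest at day 5 was 18.8% and the highest at day 0 was 20.3%. miR-53-5p held 2.03% ± 0.193 in mutants at day 5 and 1.51% ± 0.319 at day 0, and 2.07% ± 0.784 in N2 at day 5 and 1.38% ± 0.0529 at day 0, with overlap in both strains. These shares were not tested.

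miR-56-3p held 21.2% ± 5.03 in mutants at day 5 and 17.4% ± 4.06 at day 0, and 14.8% ± 3.5 in N2 at day 5 and 20.6% ± 2.48 at day 0. miR-55-3p held 20.7% ± 3.98 in mutants at day 5 and 14.5% ± 5.01 at day 0, and 13% ± 4.57 in N2 at day 5 and 15.3% ± 0.589 at day 0. The mean share of miR-54-3p lay between 12.1% and 15.7% in the 4 groups.

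**Figure D4:**
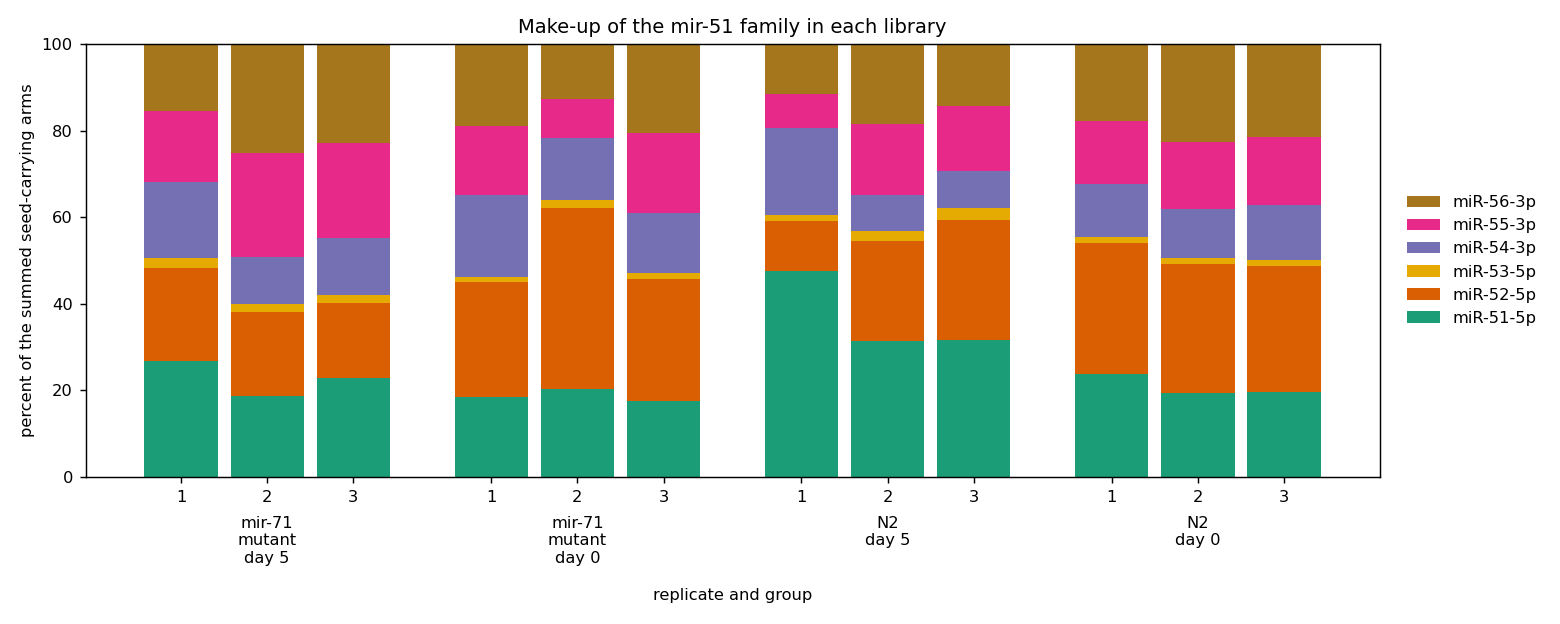
Share of each seed-carrying arm in the sum of the 6 (percent, stacked bars) in the 12 libraries. Replicate 1 of N2 at day 5 stands apart, with 47.5% miR-51-5p and 7.81% miR-55-3p.

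Replicate 1 of N2 at day 5 differed in make-up from the other libraries. miR-51-5p was 47.5% of its seed-carrying reads (95% exact binomial interval 47.3 to 47.8, counting error only), miR-54-3p 20.2% (20.0 to 20.4) and miR-55-3p 7.81% (7.65 to 7.96). The ratio of miR-51-5p to miR-52-5p, compared after the data were seen, was 1.24, 0.971 and 1.31 in mutants at day 5, against 0.705, 0.484 and 0.624 at day 0. In N2 it was 4.07, 1.34 and 1.14 at day 5, against 0.783, 0.651 and 0.675 at day 0. The day 5 ratios lay above the day 0 ratios in both strains, with or without replicate 1 of N2 at day 5, which held the 4.07.

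Of the 15 pairs of seed-carrying arms, 5 had ratios that did not overlap between the ages in mutants and 8 in N2, and 4 did so in both strains in the same direction. Those 4 were miR-51-5p to miR-52-5p and to miR-54-3p, higher at day 5, and miR-52-5p to miR-53-5p and to miR-55-3p, lower at day 5. Among all 1770 pairs of the 60 microRNAs with a mean of at least 1000, the ratios did not overlap for 48.6% in mutants, 54.9% in N2 and 35.1% in both in the same direction. Between the strains 3 of the 15 pairs were apart at day 5 (31% of all pairs) and 3 at day 0 (5.65% of all pairs). The 3 at day 0 were miR-51-5p to miR-53-5p and to miR-54-3p, lower in mutants, and miR-54-3p to miR-56-3p, higher in mutants.

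The pair of arms with the closest ratio within each group was miR-52-5p and miR-53-5p, whose sequences are near-identical. The ratio of miR-52-5p to miR-53-5p was 9.62, 9.85 and 9.29 in mutants at day 5, against 20.1, 22.3 and 21.1 at day 0. In N2 worms this ratio was 9.59, 10.5 and 10.05 at day 5, against 21.0, 22.1 and 21.4 at day 0. The 2 ages did not overlap, while the strains overlapped at each age. How far the division of reads between near-identical sequences enters this ratio was not tested.

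The neighbours miR-55-3p and miR-56-3p had the smallest SD when all 12 libraries were pooled across the groups. Their ratio ran from 0.676 to 1.04 over the 12 libraries, and the SD of its log2 was 0.23 (0.22 without replicate 1 of N2 at day 5), beside 0.51 to 0.81 for the other 14 pairs. Of the 1770 pairs above, 0.395%, or 7 pairs, had a smaller SD, and the median was 0.86. miR-54-3p, from the third hairpin of the cluster, did not keep step with miR-55-3p: their ratio ran from 0.452 to 2.59, with an SD of 0.73 (0.55 without replicate 1 of N2 at day 5). These SDs are descriptions, since the libraries of a group share their condition.

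Among 162 other microRNAs with a mean of at least 20, those whose ratio to the summed seed-carrying arms varied least over the 12 libraries were miR-73-3p (SD of the log2 ratio 0.22), miR-356b-3p (0.23), miR-64-5p (0.25), miR-65-5p (0.29) and miR-87-3p (0.32). The median over the 162 was 0.77. In the N2 libraries alone 1 of these 5 was again among the 5 closest, miR-356b-3p, and in the mutant libraries alone 4 were, all but miR-87-3p. miR-57-5p, the product of mir-57 on chromosome II (7850499 to 7850597, minus strand) and a seed relative of the family through the miR-10 group, ranked 16th with an SD of 0.39. It was called in none of the tests of age or strain by limma, with log2 differences of 0.69 for age in mutants and 0.04 for age in N2 (adjusted p = 0.321 and 0.961).

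Of 7 microRNAs with known genetic links to the family, all were measured: the let-7 family members let-7-5p, miR-48-5p, miR-84-5p and miR-241-5p, which time larval development, the neuronal lsy-6, and miR-240-3p and miR-786-3p. With age in mutants 0 rose and 0 fell, the log2 differences running from −1.22 for let-7-5p (adjusted p = 0.0765) to 1.09 for miR-48-5p (adjusted p = 0.146). With age in N2 0 rose and 3 fell (let-7-5p, miR-241-5p and lsy-6), running from −2.08 for lsy-6 (limma adjusted p = 0.0447) to 0.38 for miR-48-5p. Among all microRNAs 16% were called lower and 7.51% higher in that comparison. Between the strains 1 was higher in mutants at day 5, the scarce lsy-6, and 0 were called at day 0. The median log2 difference of the 7 with age was 0.28 in mutants and −0.88 in N2, beside the medians of all microRNAs of 0.28 and −0.48 given above.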

How the data were processed

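Small RNA of whole worms was sequenced in 12 libraries. Sample titles gave each library its group and replicate number, and no label says that replicates were separate cultures, so p-values measure the spread between these libraries, which may be technical. Per the submitters' processing notes, STAR 2.4.0h, the WBcel235 build and DESeq2 were used. Trimming, strand and multi-mapping rules are not stated in the labels. What the authors deposited is a normalised signal per microRNA, read counts divided by a factor per library, and a log2 table of unstated transformation, which served only as an alternative. Within each library 100% of values were whole multiples of 1 step (tolerance 0.001), and dividing by it gave read numbers. These rest on the values alone, so no count test was run. Exact binomial intervals cover counting error only, as no molecular identifiers are mentioned.

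For testing, 1 was added to each value before taking log2, which understates changes of scarce microRNAs, and a filter at a mean of 5 removed 0 microRNAs. The tests used limma 3.58.1 under R 4.3.3. Its fit took all 12 libraries and 4 group means, let the prior variance follow intensity and left 8 residual degrees of freedom. Tests were two-sided, adjusted by Benjamini-Hochberg over 213 microRNAs (211 for strain and for the difference between age effects, without the mir-71 products) and called under 0.05. Arm ratios of 61 genes were fitted likewise, as the more over the less abundant arm by the mean over all 12 libraries. For mir-51 and mir-54 this is the seed-carrying over the opposite arm. The fits were checked on simulated data. Named microRNAs were the measured arms of the family, miR-57-5p, the microRNAs with genetic links, the 5 most alike, the 3 largest called arm ratio changes with age in each strain, and tissue markers. Members and lists were chosen with earlier results of these data known. The age effect averaged over strains and the pair ratios were added after the data were seen. Alternatives varied the pseudocount, filter, scaling, trend, groups fitted and replicate block, used the authors' log2 table, or left out each library.

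Replicate numbers were taken as pairing libraries where all 3 same-numbered pairs deviated together from their group means by a correlation over 0.1. This held for age in mutants (0.36, 0.39 and 0.11), strain at day 5 (0.40, 0.47 and 0.34) and strain at day 0 (0.56, 0.42 and 0.25), and not for age in N2. The pairing was thus inferred from these data, and the block fitted the same replicate effects in all 4 groups. Which arms carry the seed was taken from general knowledge of the family.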

Additional observations from a re-analysis of the deposited data

Results flagged for a closer look

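For miR-55-3p and miR-56-3p, made from neighbouring hairpins of the X cluster, the libraries lay in opposite order with age in the strains, though neither arm passed the limma test of age in either strain. Every mutant library at day 5 stood above every mutant library at day 0, and every N2 library at day 5 stood below every N2 library at day 0. The age difference in mutants minus that in N2 was 1.41 on the log2 scale for miR-55-3p and 1.33 for miR-56-3p. The limma test of that difference gave an adjusted p of 0.394 for each, beside 0.210 to 0.807 over its 22 alternatives, so that it did not pass the threshold under any of them. The value ran from 0.76 to 1.60 for miR-55-3p and from 0.68 to 1.49 for miR-56-3p over these alternatives, and was above 0 in each. The median of the same difference over all microRNAs was 0.70, and under equal totals, trimmed means of M-values and library medians it was 0.16, 0.06 and 0.07. Under these 3 scalings neither arm had groups without overlap for age in either strain. Under equal totals the age difference of miR-56-3p in mutants was −5.09e-05 ± 0.39 (SE), which shows no direction.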

How the results depend on the processing

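Scaling turned the sign of some member differences, listed below. It does not enter the plain arm ratios, and enters the tested log2 arm ratios only through the added 1. Equal totals, trimmed means of M-values (TMM) and library medians moved the median log2 difference of all microRNAs by 0.01, 0.39 and 0.51 for age in N2, by −0.52, −0.22 and −0.10 for age in mutants, by −0.13, −0.27 and −0.19 for strain at day 0, and by −0.66, −0.93 and −0.83 for strain at day 5. The difference between the age effects moved by −0.54, −0.64 and −0.63. The number of members called for age in mutants, 1 as reported, was 2 under each of the 3 scalings and 0 with the compared groups alone. Of all 213 microRNAs these scalings called 71, 65 and 75, and the compared groups alone 3, beside 29 as reported. For strain at day 5, 1 as reported, the number of members called was 0 under equal totals, library medians, the compared groups alone and no trend. These settings called 26, 24, 53 and 44 of all 211 microRNAs, beside 48 as reported. For age in N2, 2 as reported, the number of members called was 1 with the deposited log2 values, where 38 of all 213 microRNAs were called. Leaving out 1 library gave 0 to 2 members called in each of these 3 comparisons.

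Under equal totals the sign turned for age in mutants in miR-51-5p (−0.025) and miR-54-3p (−0.48), and nominally in miR-56-3p (−5.09e-05), where the difference was nearly nil. It turned at day 0 in miR-52-5p (−0.089), miR-53-5p (−0.065) and miR-54-5p (−0.044), and at day 5 in miR-52-5p (−0.19) and miR-53-5p (−0.12). For the difference between the age effects it turned in miR-51-5p (−0.53), miR-52-5p (−0.10), miR-53-5p (−0.057) and miR-54-3p (−0.10).

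Under TMM it turned for age in miR-54-3p, in mutants (−0.18) and in N2 (0.032), and at day 0 in miR-52-5p (−0.25), miR-53-5p (−0.23) and miR-54-5p (−0.20). It turned at day 5 in miR-52-5p (−0.46), miR-53-5p (−0.39), miR-54-3p (−0.17) and miR-54-5p (−0.24). For the difference between the age effects it turned in miR-51-5p (−0.64), miR-52-5p (−0.21), miR-53-5p (−0.16), miR-54-3p (−0.21) and miR-54-5p (−0.039).

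Under library medians it turned for age in miR-54-3p, in mutants (−0.048) and in N2 (0.16), and at day 0 in miR-52-5p (−0.16), miR-53-5p (−0.13) and miR-54-5p (−0.11). It turned at day 5 in miR-52-5p (−0.36), miR-53-5p (−0.29), miR-54-3p (−0.071) and miR-54-5p (−0.14). For the difference between the age effects it turned in miR-51-5p (−0.63), miR-52-5p (−0.20), miR-53-5p (−0.16), miR-54-3p (−0.20) and miR-54-5p (−0.032). For all these turns the cause was not tested.

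Leaving out 1 library turned the sign of miR-53-5p for age in N2 (−0.044 to 0.49) and of miR-54-3p for age in mutants (−0.36 to 0.28). At day 0 it did so for miR-52-5p (−0.14 to 0.18), miR-53-5p (−0.079 to 0.20), miR-54-5p (−0.27 to 0.42), miR-55-3p (−0.38 to 0.16) and the mir-54 arm ratio (−0.0048 to 0.43). At day 5 it did so for miR-51-3p (−0.48 to 0.12), miR-51-5p (−0.53 to 0.084) and the arm ratios of mir-51 (−0.39 to 0.56) and mir-54 (−0.091 to 0.19). For the difference between the age effects it did so for miR-51-5p (−0.34 to 0.27) and the mir-54 arm ratio (−0.34 to 0.092). None of these was called.

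With the replicate block, 2 members were called for age in mutants, where 67 of all 213 microRNAs were called, and 2 for strain at day 5, where 96 of all 211 were called. For age in N2, where the numbers did not pair the libraries (correlations −0.02, 0.13 and 0.05, with 0 of 6 libraries closest to their own number), the block left 2 members called and gave 86 calls among all microRNAs, beside 50 without it. It changed no other call of a member or arm ratio. The read numbers of miR-51-3p, 10 to 197 per library, limit the precision of the mir-51 arm ratio.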
